A study of Mus musculus with 15 samples.

Results

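Stool bacteria of placebo-treated mice were compared before and after acute colitis, over 7 of the 15 libraries of the series. The members are the libraries labelled PBS: 4, 5 and 6, titled before DSS (n = 3), against 12, 13, 14 and 15, titled after DSS (n = 4). All the mice were littermates without a working Gpr15l gene, which encodes a peptide ligand of the lymphocyte homing receptor GPR15, so no wild-type stool entered the comparison. Acute colitis was induced with dextran sulfate sodium (DSS), a sulfated polysaccharide that damages the colonic lining. Sterile phosphate-buffered saline (PBS) was the placebo for recombinant human GPR15L, given once a day from day 3 to day 9 of the protocol, by the rectal route per the series title. The sample titles write Gpr15-/- where the series text writes Gpr15l, and the series text was followed. The labels list every mouse as male, the design text mentions both sexes, and neither age nor strain is given in the sources used here.

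What was measured is the V4 stretch of the bacterial 16S rRNA gene, amplified from stool DNA. Values are read counts per amplicon sequence variant (ASV), one exact amplicon sequence, which need not stand for one strain. The ASVs are numbered here by their total count over the series. Shares are percent of a library's counts, so one taxon's share can move because another's did, and no amount per gram of stool was measured. The labels number the libraries 1 to 15 and do not say whether any mouse was sampled at both times, so the groups were compared without following a mouse. The design text gives 3 to 4 mice per cage, and no label gives the cage of a library. Mice eat each other's droppings and share bacteria within a cage, so p-values measure the spread between these samples, which may not be independent within or between the groups. Before and after also coincide with separate runs of library names, so library batch and the course of colitis cannot be told apart. Elapsed time and the daily PBS dosing lie between the groups as well. The series holds no placebo libraries without DSS at the later time, so these cannot be told apart from colitis either. "Rose" and "fell" below compare the libraries after DSS with those before.

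The healthy mouse colon holds mostly strict anaerobes of the phyla Bacteroidota and Bacillota, which ferment fiber and host mucus to short-chain fatty acids. A smaller set, including Helicobacter and Mucispirillum, lives in or near the mucus layer. Chemically induced colitis thins mucus, lets oxygen and nitrate into the lumen and is commonly followed by a changed community, often with more facultative anaerobes of the Enterobacterales. Which of these groups moved in the placebo arm, and at which taxonomic rank, is the question of this comparison.

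The libraries held 48847 to 162266 counts before DSS and 50041 to 67860 after DSS. At 48847 counts the 95% Wilson interval of a share of 1% runs from 0.915% to 1.09%, and that of 0.1% from 0.0759% to 0.133%. An ASV at 0 throughout a group could still hold a share of up to 0.000872% before DSS or 0.00128% after DSS. These limits cover counting error only, since reads from PCR are not independent molecules. Against a group at 0, a fold is a lower bound ("at least") that puts 3 counts in the summed total of the group at 0.

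3 libraries need to be known before the results. Library 7 is titled PBS after DSS, but its library name falls in the run of names taken before DSS. It was left out of the comparison, and its values are given beside it. Library 6, before DSS, lacked 42 of the 88 ASVs (47.7%) that all 6 other compared libraries held, where any other library lacked at most 5 of the ASVs held by its 6 partners. It held 90.6 ASVs at equal depth, against 295 in library 4 and 175 in library 5. A single ASV of Mucispirillum, ASV1, made up 24.2% of its counts. Of the 42 ASVs missing from it, library 7 held 3 and the GPR15L libraries before DSS held 32 to 35. Library 14, after DSS, had 65.1% Bacillota and 19.1% Bacteroidota, where the other 3 libraries after DSS had 24.0% to 28.3% Bacillota and 56.2% to 58.9% Bacteroidota. Where a call was lost without library 6 or 14, this is said beside it.

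The 3 largest families did not pass the test of before against after. Bacteroidaceae, fermenters of host and plant glycans, made up 18.2%, 26.0% and 6.00% of counts before DSS and 30.9%, 29.8%, 6.82% and 27.3% after DSS. Lachnospiraceae, which include many butyrate producers, stood at 25.9%, 11.3% and 24.1% before and 8.56%, 11.0%, 36.3% and 13.6% after. For Muribaculaceae, fiber fermenters typical of mice, the shares were 14.2%, 13.5% and 10.7% before and 21.3%, 21.3%, 8.36% and 19.7% after. In all 3 families the groups overlapped. Their edgeR quasi-likelihood adjusted p, by Benjamini-Hochberg over 38 families, was 0.64, 0.829 and 0.605 in the same order.

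**Figure D1:**
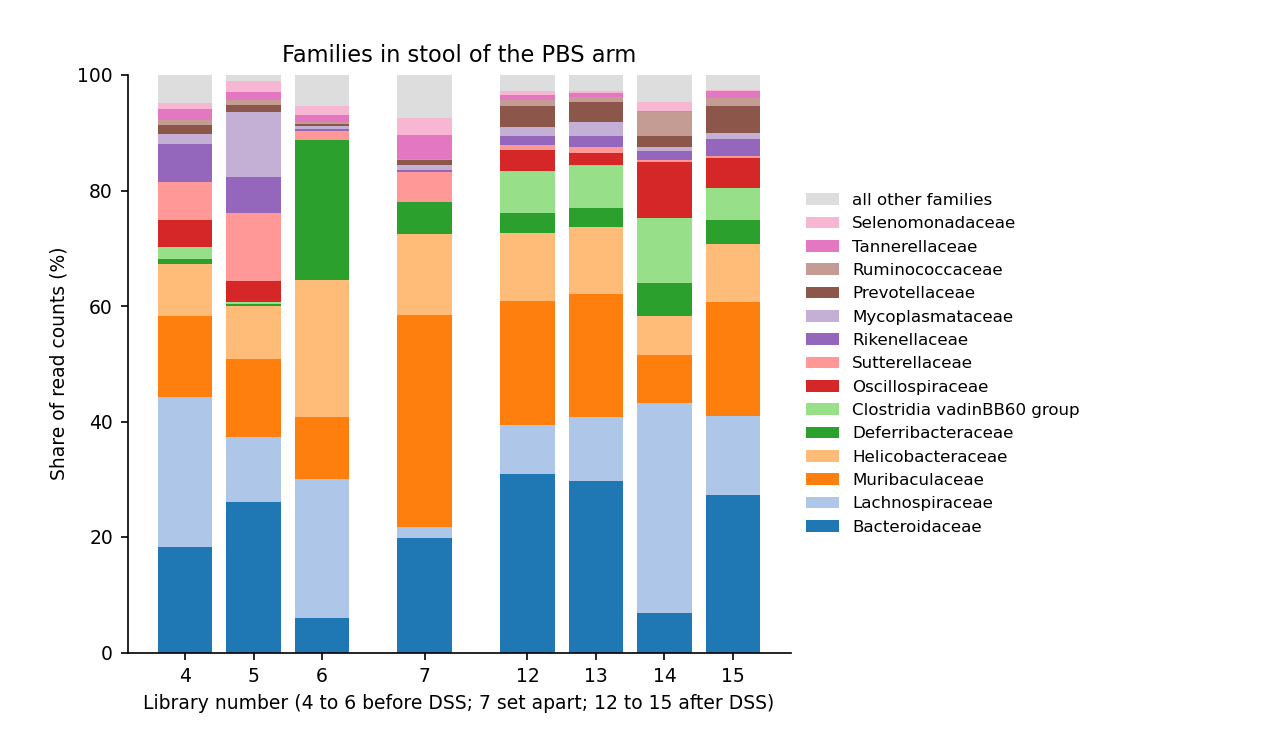
Share of read counts (%) of the 14 families with a mean of at least 1% in either group, in each PBS library; gray is the sum of all other families. Sutterellaceae are thin in libraries 12 to 15 (0.223% to 1.14%), the Clostridia vadinBB60 group is broad there (5.57% to 11.2%), and libraries 6 and 14 stand apart from their groups.

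The family that fell was Sutterellaceae, of the phylum Pseudomonadota, whose mouse gut members Turicimonas and Parasutterella use amino acids and organic acids rather than sugars. Its shares were 6.54%, 11.6% and 1.55% before DSS and 0.793%, 1.14%, 0.223% and 0.401% after DSS. Every library after DSS lay below every library before DSS. The mean went from 6.57% ± 5.03 (SD, n = 3) to 0.640% ± 0.411 (n = 4), a log2 change of -3.36 ± 0.82 (SE, edgeR quasi-likelihood adjusted p = 0.0220). It was 1 of the 38 families tested (2.63%) to pass, and 0 passed upward. Shares that did not overlap between the groups were seen in 5 families that were higher after (13.2%) and 3 that were lower (7.89%). The call was lost without library 5, 12, 14 (adjusted p = 0.0910) or 15, and the highest adjusted p over the alternatives was 0.349, with library 7 counted as titled. Library 7 itself held 5.17% (95% Wilson interval 5.06% to 5.28%), inside the range before DSS.

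The order Burkholderiales, which here is nearly all Sutterellaceae, gave the same log2 change of -3.36 ± 0.88 and was 1 of 27 orders (3.70%) to pass (edgeR adjusted p = 0.0210). Like that of the family, the call on Burkholderiales was lost without library 5, 12, 14 (adjusted p = 0.0826) or 15 and with library 7 as titled (0.251), and it was also lost with TMMwsp scaling. The phylum Pseudomonadota went from 7.36%, 11.7% and 3.34% to 1.05%, 1.35%, 1.07% and 0.616%, again without overlap. Its mean of 7.46% ± 4.18 before became 1.02% ± 0.305 after, a log2 change of -2.87 ± 0.65 (edgeR adjusted p = 0.00495). It was 1 of 11 phyla (9.09%) to pass, 1 of 2 (18.2%) that lay lower after without overlap, and it passed with each compared library left out in turn. The phylum sum counts reads labelled Mitochondria, which are not bacterial. Of the phylum's 3.34% in library 6 these reads were 1.36%, and of its 1.07% in library 14 they were 0.724%. In each of the other compared libraries they lay between 0.0491% and 0.221%. The phylum was not tested without them. Inside Sutterellaceae, 1 of the 6 tested ASVs passed. This was ASV34, of Turicimonas, at 1.68%, 2.62% and 0.550% before DSS and at 0, 0, 0.0118% and 0 after DSS (edgeR adjusted p = 0.00271). The larger Turicimonas ASV7 went from 4.52% ± 3.73 to 0.560% ± 0.347 and did not pass (edgeR adjusted p = 0.0900). Within Turicimonas counts, ASV34 held 22.6% to 39.5% before DSS and 0 to 5.30% after.

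Enterobacterales, the facultative anaerobes that include Escherichia, were scarce. Their shares were 0.0622%, 0 and 0.0218% before DSS, and they had no count in any of the 4 libraries after DSS. Of 3 ASVs in this order 1 was tested, and the order did not pass (edgeR adjusted p = 0.0723). The wider list of facultative anaerobes had 5 ASVs, of which 1 was tested and 0 passed, with summed means of 0.0307% ± 0.0281 before and 0.00899% ± 0.0180 after.

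No other phylum passed. Bacteroidota stood at 36.7% ± 15.9 before and 47.9% ± 19.3 after, and Bacillota at 31.9% ± 6.12 and 35.7% ± 19.7, both with overlapping groups. The fitted log2 change of Bacillota was 0.16, and it turned to -0.30 without library 14. Deferribacterota, in these mice Mucispirillum, went from 8.54% ± 13.6 to 4.20% ± 1.12 with a log2 change of -1.02. Libraries 4 and 5 held 0.987% and 0.426% and the libraries after DSS 3.28% to 5.75%, so that without library 6 the sign turned, to 2.57. Neither value passed the threshold. Verrucomicrobiota, the phylum of Akkermansia, stood at 0.589% ± 0.950 and 0.370% ± 0.533, and Akkermansia itself had no count in any of the 7 libraries. Thermodesulfobacteriota, which hold the sulfate reducers, stood at 0.757% ± 0.450 before and 0.517% ± 0.221 after.

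Spirochaetota, Patescibacteria, Actinomycetota and unassigned Eukaryota, each under 0.2% on average in both groups, did not pass either. Patescibacteria, very small bacteria that live attached to others, were at 0.00555%, 0.00819% and 0 before and at 0.0380% to 0.0752% after, the 1 phylum (9.09%) higher after without overlap. Actinomycetota were at 0.0205% to 0.128% before and at most 0.0113% after, again without overlap. Their edgeR adjusted p was 0.128 in both cases.

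The community was then compared ASV by ASV. Bray-Curtis distance is the share of the counts by which 2 libraries differ, from 0 for the same composition to 1 for none in common. Between a library before and one after DSS it averaged 0.709 over 12 pairs (0.605 to 0.819). Within the group after DSS it averaged 0.336 (0.163 to 0.506), and within the group before DSS 0.602 (0.342 to 0.742), where both distances to library 6 were above 0.7. Time accounted for an R2 of 0.482 of the squared distances (exact permutation p = 0.0286, one-sided over 35 splits, the smallest p that 3 against 4 libraries allow). Leaving out any compared library kept R2 between 0.451 and 0.646, where no split could reach 0.05.

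The coarser the rank, the smaller was that share. R2 was 0.263 for genus sums, 0.243 for family sums, 0.195 for order sums and 0.109 for phylum sums, with exact permutation p of 0.114, 0.257, 0.343 and 0.714. The test of distance therefore passed for ASVs and did not pass for sums at any higher rank. It responds to unequal spread as well as to a shift. Since the libraries before DSS were spread more widely, it cannot tell these apart. Library 4 lay nearer to every library after DSS (0.605 to 0.627) than to library 6 (0.721). The same held for library 5 (0.694 to 0.732, against 0.742). On presence and absence alone (Jaccard) the ASV R2 was 0.382 and on log ratios (Aitchison) 0.430, each with an exact permutation p of 0.0286.

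**Figure D2:**
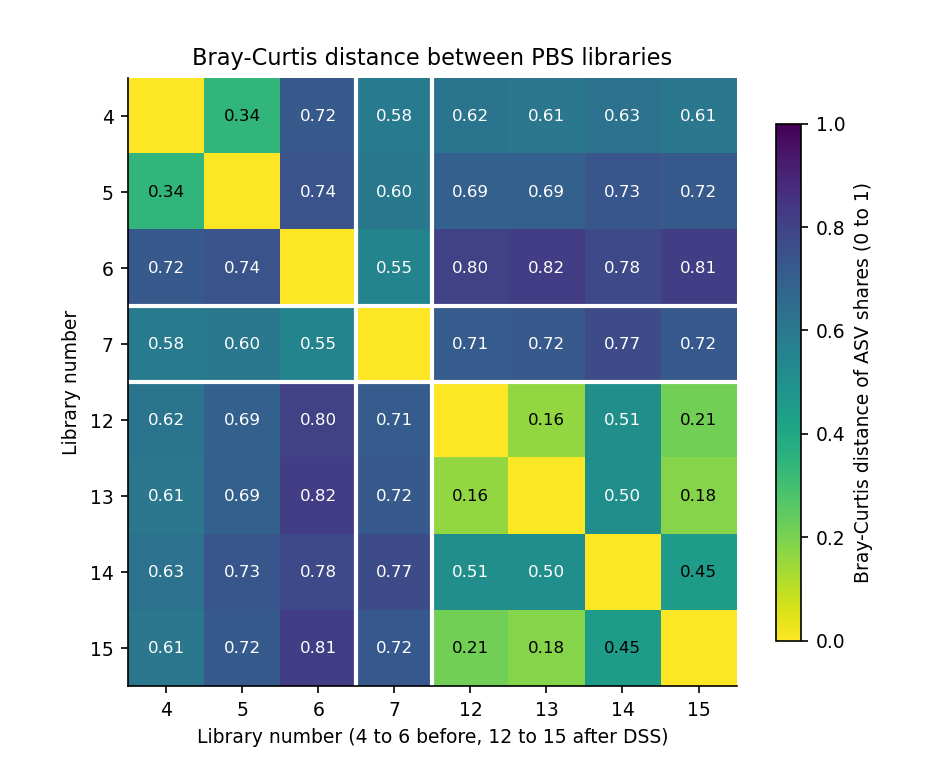
Bray-Curtis distance (0 to 1) between the 8 libraries labelled PBS, computed on ASV shares; white lines set library 7 apart. Libraries 12, 13 and 15 lie 0.16 to 0.21 from each other, libraries 4 and 5 lie 0.34 apart, and library 7 is nearer to libraries 4 to 6 (0.55 to 0.60) than to libraries 12 to 15 (0.71 to 0.77).

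Diversity within a library did not differ beyond the spread. The Shannon index, which rises with the number of ASVs and the evenness of their shares, was 4.51, 3.70 and 2.85 before and 3.74, 3.74, 4.15 and 3.86 after. The difference in means was 0.185 (exact permutation p = 0.686, two-sided), and without library 6 it was -0.231. At an equal depth of 48847 counts there were 295, 175 and 90.6 ASVs before and 173, 179, 186 and 176 after, a difference in means of -8.31 (exact permutation p = 0.8). The spread before DSS, an SD of 103, was far above that after DSS, an SD of 5.51.

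Over the 7 libraries 380 ASVs were found. Of these, 186 occurred both before and after, 135 before only and 59 after only. Detection grows with depth, and the summed counts were 344104 before DSS and 233599 after. Most of the unshared ones were seen once: 87 of the 135 and 39 of the 59 were in a single library. Found in every library before and in none after were 4 ASVs (1.05%), and found in every library after and in none before were 11 (2.89%). The largest of the first kind were ASV4, ASV10 and ASV15, and the largest of the second kind were ASV29, ASV119 and ASV129, the last an ASV of Oscillospiraceae at 0.298% after DSS. ASVs not found before made up 5.66% to 10.7% of counts in the libraries after DSS. ASVs not found after made up 20.8%, 22.4% and 8.21% of counts in libraries 4, 5 and 6.

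Of 282 ASVs tested, 12 passed (4.26%), 5 upward (1.77%) and 7 downward (2.48%), while 89 had an unadjusted p under 0.05. The filter on low counts was set over the 14 libraries of both arms, and 22 of the 282 had none in these 7 libraries. TMM scaling gave 4 upward and 10 downward, and library totals as the only scaling gave 3 and 7. The count was 7 without library 12, and those 7 were all among the 12. It was 15 without library 6, of which 11 were shared, 9 without library 14, all shared, and 10 without both, of which 9 were shared. By another measure, the shares of the groups did not overlap for 38 ASVs that were higher after (13.5%) and 12 that were lower (4.26%).

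**Figure D3:**
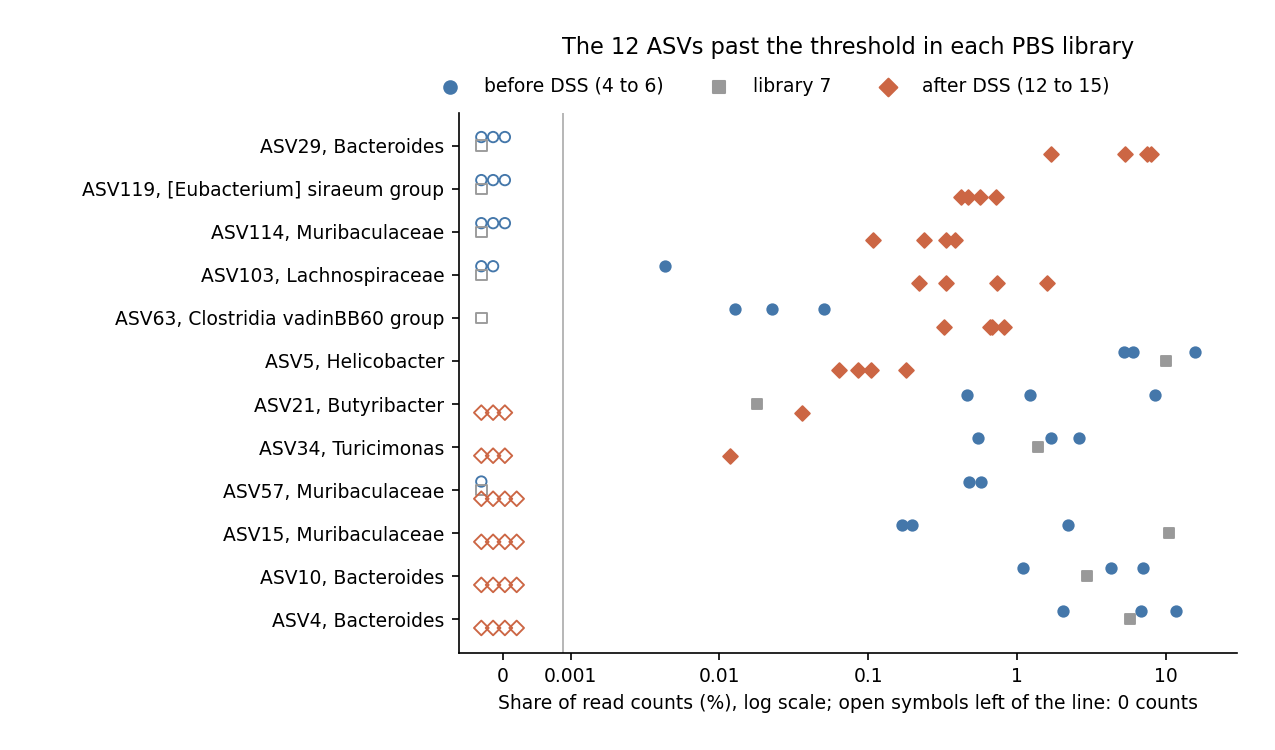
Share of read counts (%, log scale) of the 12 ASVs with an edgeR adjusted p under 0.05, in each PBS library; open symbols left of the vertical line stand for 0 counts. ASV4 and ASV10 lie at 1.10% to 11.8% before DSS (circles) and at 0 in all 4 libraries after (diamonds), ASV29 the other way round, and library 7 (square) sits with the libraries before DSS for ASV4, ASV10, ASV34 and ASV5.

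The largest of these changes lay inside Bacteroides, a genus whose total did not pass (16.8% ± 10.1 before, 23.7% ± 11.4 after, edgeR adjusted p = 0.645 over 78 genera). ASV4 held 6.83%, 11.8% and 2.03% of counts before DSS and had no count in any library after DSS. It was at least 5354-fold lower after (edgeR adjusted p = 2.96e-05). ASV10 made up 4.28%, 7.00% and 1.10% before and likewise had no count after, at least 3213-fold lower (edgeR adjusted p = 3.47e-05). In the opposite direction, ASV29 had no count in libraries 4 to 6 and made up 7.50%, 5.36%, 1.69% and 7.93% after DSS. This is at least 6445-fold higher, with an edgeR adjusted p of 0.00935. Of the 12 ASVs it alone passed in every one of its 17 alternatives.

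Within Bacteroides counts, ASV4 and ASV10 together held 60.9%, 72.1% and 52.2% before DSS and 0 after. ASV2, ASV3 and ASV29 together held 25.2%, 17.5% and 36.2% before and 94.3% to 95.9% after. The 4 libraries after DSS thus had nearly the same Bacteroides make-up, although library 14 held 6.82% of the genus and the others 27.3% to 30.9%. ASV3 went from 1.67%, 1.02% and 0.349% of all counts to 12.6%, 12.4%, 2.62% and 9.18%, without overlap, and did not pass (log2 change 3.34, edgeR adjusted p = 0.0900). ASV2 went from 2.75% ± 0.862 to 7.70% ± 3.69, with overlapping groups, and did not pass either.

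**Figure D4:**
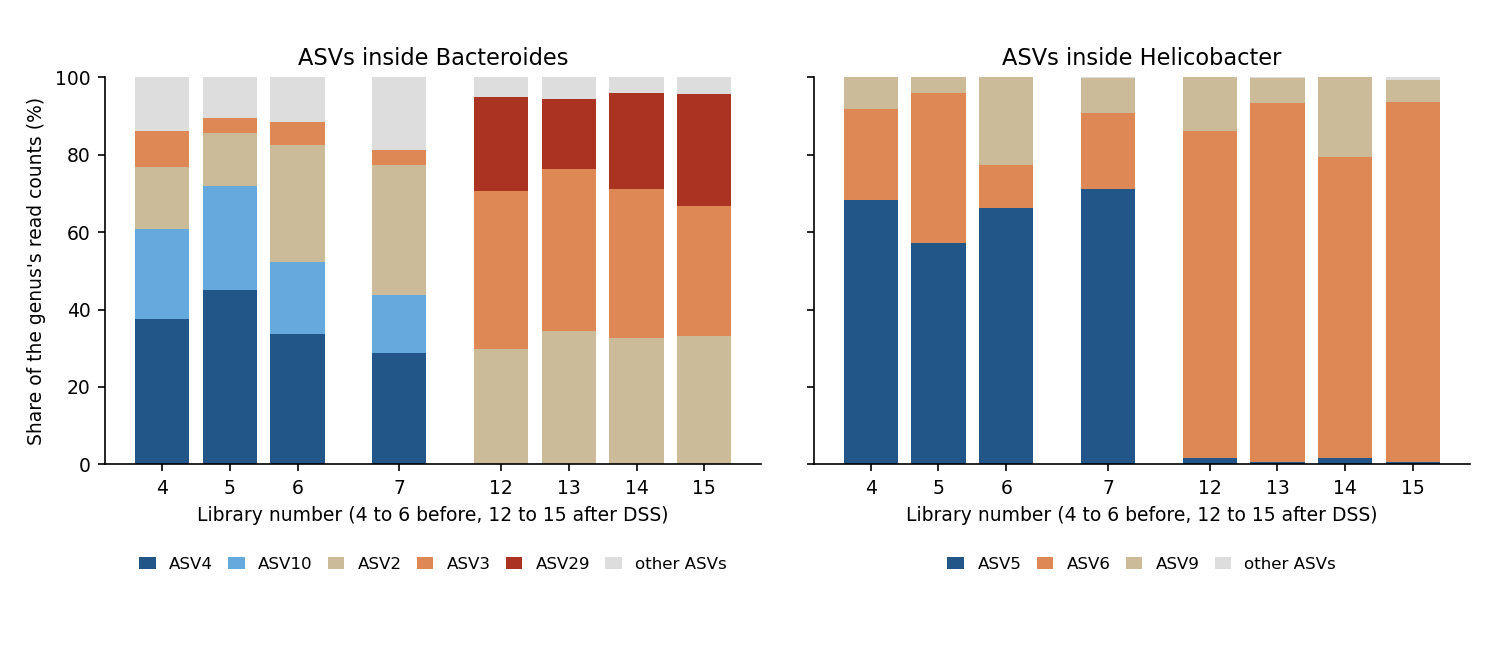
Share of each ASV (%) in the read counts of its genus, for Bacteroides and Helicobacter, in each PBS library. ASV4 and ASV10 fill 52.2% to 72.1% of Bacteroides before DSS and 0 after, ASV29 appears after DSS alone, and ASV5 falls from 57.3% to 68.4% of Helicobacter to at most 1.55%.

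Helicobacter, spiral bacteria of the mucus and crypts, also changed in its ASV make-up, with a call downward alone. The genus stood at 8.86%, 9.08% and 23.8% before and 11.8%, 11.5%, 6.77% and 10.0% after, with overlapping groups (edgeR adjusted p = 0.782). ASV5 made up 6.06%, 5.21% and 15.8% before and 0.181%, 0.0859%, 0.105% and 0.0639% after. Its mean was 82.8-fold lower after DSS, with a log2 change of -6.81 ± 0.94 (edgeR adjusted p = 0.000197). ASV5 held 57.3% to 68.4% of Helicobacter counts before and 0.636% to 1.55% after, whereas ASV6 went from 11.0% to 38.6% up to 77.8% to 93.1%. As a share of all counts ASV6 was at 2.09%, 3.50% and 2.63% before and 9.96%, 10.7%, 5.27% and 9.35% after, without overlap, and it did not pass (edgeR adjusted p = 0.166). ASV9, the third Helicobacter ASV of size, was at 2.17% ± 2.82 and 1.09% ± 0.511 and did not pass.

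The ASV make-up inside a family can be compared apart from the family's total, as the Bray-Curtis distance of shares within it. For Bacteroidaceae this distance averaged 0.691 between before and after, 0.152 within before and 0.0683 within after. For Helicobacteraceae it averaged 0.669, against 0.191 and 0.0939. In Sutterellaceae it averaged 0.312, against 0.153 and 0.0801. Lachnospiraceae had a mean of 0.740 between the groups and 0.751 among the libraries before DSS, and Muribaculaceae 0.544 and 0.526, so there the libraries before DSS differed from each other as much as from those after. These distances are given as a description, with no test.

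Muribaculaceae, with 63 ASVs, had 42 tested, of which 1 rose and 2 fell, where 1.77% and 2.48% of all tested ASVs did. ASV15 made up 0.198%, 0.170% and 2.20% before and had no count after (at least 666-fold lower, edgeR adjusted p = 0.00134). ASV57 made up 0.574% and 0.477% in libraries 4 and 5, had no count in library 6 and none after (at least 273-fold lower, edgeR adjusted p = 0.0397). The call on ASV57 was lost without library 5, 12, 14 (adjusted p = 0.0821) or 15. ASV114 was found in no library before and made up 0.382%, 0.238%, 0.108% and 0.335% after (at least 305-fold higher, edgeR adjusted p = 0.0115). The median log2 change over the 39 of them with more than 3 counts in a PBS group was 1.04, beside -0.0429 over all 259 such ASVs, with ASVs at 0 in a group placed at their bound.

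The 4 families chosen for their butyrate producers (Lachnospiraceae, Oscillospiraceae, Ruminococcaceae and Butyricicoccaceae) held 277 ASVs, of which 159 were tested, 2 rose and 1 fell, 3 in all, where 4.26% of all tested ASVs passed. Their summed share was 24.1% ± 7.89 before and 24.8% ± 17.7 after, and their median log2 change was -0.0133. ASV21, of Butyribacter, fell from 0.464%, 1.22% and 8.46% to 0, 0.0360%, 0 and 0 (edgeR adjusted p = 0.0151). The call on ASV21 was lost without library 6 (edgeR adjusted p = 0.0515) and without library 12 (0.0596). It was also lost with the 2 PBS groups fitted alone (0.0543) and without libraries 6 and 14 together (0.0818). Its genus fell with it, from 0.961%, 1.66% and 10.9% to 0, 0.0580%, 0 and 0 (edgeR adjusted p = 0.0245), and that call was lost without library 14 (0.0933) or 15. The genus also lost its call with the 2 PBS groups fitted alone (0.109) and without libraries 6 and 14 together (0.0746). ASV119, of the [Eubacterium] siraeum group, fermenters of plant fiber, had no count before and made up 0.469%, 0.422%, 0.718% and 0.567% after (at least 624-fold higher, edgeR adjusted p = 0.0151), a call lost without library 12 or 15. As the one ASV of its genus with counts here, it carried the genus past the threshold too (edgeR adjusted p = 0.00611). ASV103, a Lachnospiraceae ASV without a genus, had 7 counts in library 4, none in libraries 5 and 6, and made up 0.333%, 0.220%, 1.60% and 0.731% after (edgeR adjusted p = 0.0404). The call on ASV103 held in 9 of 17 alternatives and was lost without library 4, 5, 12, 14 (adjusted p = 0.104) or 15.

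Of 78 genera or lowest named ranks 4 passed (5.13%), 3 upward (3.85%) and 1 downward (1.28%), the last being Butyribacter. Upward there were the [Eubacterium] siraeum group, the Clostridia vadinBB60 group and Ruminococcus, at 0 before DSS and 0.0889% ± 0.0391 after. Ruminococcus lost its call without library 4, 5, 12, 13, 14 or 15, with TMM scaling and with library totals as the only scaling. The count of genera depended on single libraries: it was 9 without library 4, 7 without library 6, 2 without library 5, 12 or 13, and 1 without library 14 or 15.

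The Clostridia vadinBB60 group, an order of gut Clostridia known mainly from sequences, had shares of 2.10%, 0.352% and 0.0308% before DSS and 7.29%, 7.39%, 11.2% and 5.57% after. Each library after DSS lay above each library before, and the mean of 0.828% ± 1.11 became 7.87% ± 2.39, 9.51-fold higher. Taken among genera and lowest named ranks its log2 change was 3.86 ± 1.05 (edgeR adjusted p = 0.0437), and taken among families, scaled by library totals, 3.25 ± 1.02 (edgeR adjusted p = 0.0906). The first of these calls held in 7 of 17 alternatives and was lost without library 5, 12, 13, 14 (adjusted p = 0.104) or 15. Of its 19 ASVs 13 were tested, and 12 of the 13 had a higher fitted value after DSS, with a median log2 change of 4.06. Of the 259 ASVs measured in the same way 125 had a higher fitted value. The shares of 9 of the 13 did not overlap and were higher after, where this held for 13.5% of all tested ASVs. One ASV passed: ASV63, at 0.0505%, 0.0225% and 0.0128% before and 0.656%, 0.677%, 0.821% and 0.323% after, with a log2 change of 4.44 ± 1.13 (edgeR adjusted p = 0.0397). The call on ASV63 held in 5 of its 17 alternatives, and of the libraries left out in turn it survived the loss of library 6 alone. The largest, ASV38, went from 0.458%, 0.123% and 0.00978% to 4.29%, 3.33%, 3.80% and 2.51%, without overlap, and did not pass (edgeR adjusted p = 0.158). Library 7 had no count of this group.

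**Figure D5:**
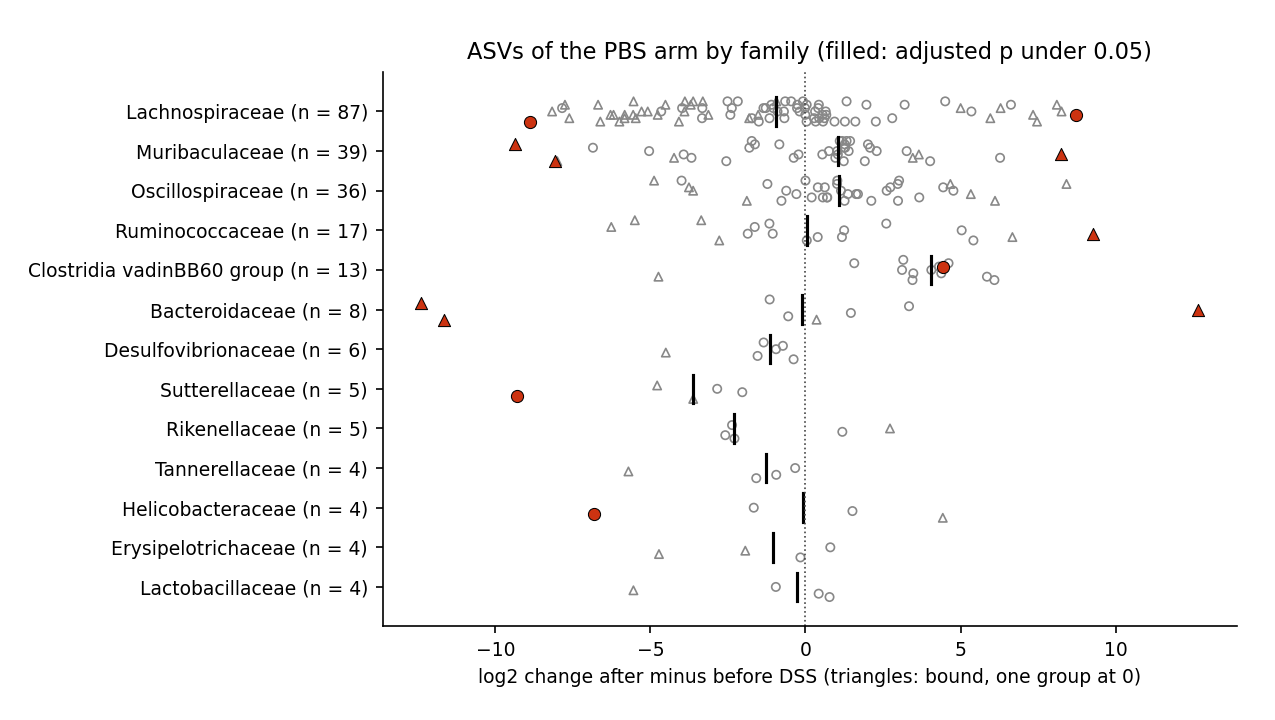
Fitted log2 change after minus before DSS of each tested ASV with more than 3 counts in a PBS group, for families with at least 4 such ASVs; black bars are medians, filled symbols have an edgeR adjusted p under 0.05, and triangles are bounds for ASVs at 0 in one group. In the Clostridia vadinBB60 group 12 of 13 ASVs lie above 0, whereas Bacteroidaceae hold calls at both ends.

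Among the other families of at least 1%, Prevotellaceae, which ferment plant fiber, went from 1.45%, 1.33% and 0.308% to 3.72%, 3.42%, 1.89% and 4.82%. The groups did not overlap, and the log2 change of 1.75 ± 0.78 did not pass (edgeR adjusted p = 0.166). ASV12, of Prevotellaceae UCG-001, made up nearly all of it, at 1.03% ± 0.625 and 3.46% ± 1.21. Tannerellaceae, here mainly Parabacteroides, went from 1.96%, 1.41% and 1.25% to 0.908%, 0.819%, 0.169% and 1.07%, also without overlap and short of the threshold (edgeR adjusted p = 0.475). Rikenellaceae were at 4.44% ± 3.55 and 1.99% ± 0.644, Oscillospiraceae at 2.81% ± 2.44 and 5.16% ± 3.30, Ruminococcaceae at 0.643% ± 0.344 and 1.82% ± 1.54, Selenomonadaceae at 1.49% ± 0.404 and 0.698% ± 0.665, and none passed. Mycoplasmataceae were here a single Ureaplasma ASV, ASV19, at 1.73%, 11.2% and 0.583% before and 0.734% to 2.40% after, and its sign turned without library 5.

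Of the 20 ASVs with a mean of at least 2% in either group, 5 passed: ASV4, ASV5, ASV10, ASV21 and ASV29. Among the 15 others, ASV17, a Lachnospiraceae ASV, was at 0.973%, 0.242% and 11.2% before and at 0.113% to 0.389% after, so its mean before rested on library 6. ASV28, of Alistipes, was at 4.66% and 5.69% in libraries 4 and 5, at 0 in library 6 and at 0.479% to 0.565% after. ASV41, a Lachnospiraceae ASV, was at 0.323%, 0.0594% and 0 before and at 0.228%, 0.564%, 9.72% and 1.41% after, so its mean after rested on library 14. ASV8 and ASV24, of Muribaculaceae, went from 0.931% ± 0.715 to 2.13% ± 1.48 and from 0.536% ± 0.401 to 2.02% ± 0.842, and ASV22, of the Lachnospiraceae NK4A136 group, from 1.34% ± 1.84 to 2.93% ± 2.13. None of these passed.

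Of the remaining lists, Helicobacteraceae had 1 of 4 tested ASVs lower, and Bacteroides with Parabacteroides had 11 tested, of which 1 rose and 2 fell. The lists of Rikenellaceae with Prevotellaceae (6 tested), Akkermansia with Mucispirillum (3), Clostridiaceae with Peptostreptococcaceae (3), Lactobacillaceae with Bifidobacteriaceae (5), sulfate reducers (6), Erysipelotrichales with Turicibacter (6) and ASVs that were not bacterial or lacked a phylum (2) had 0 ASVs past the threshold in either direction. Lactobacillaceae with Bifidobacteriaceae, which produce lactic acid, stood at 0.323% ± 0.312 and 0.310% ± 0.140.

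Library 7 was then set beside both groups. Its Bray-Curtis distance to libraries 4 to 6 was 0.547 to 0.599 and to libraries 12 to 15 it was 0.708 to 0.766. Its nearest library of the whole series was library 1, of the GPR15L arm before DSS, at 0.528. To the GPR15L libraries it was 0.528 to 0.676 before DSS and 0.562 to 0.641 after DSS. Library 11, of the GPR15L arm after DSS, lay nearer to it (0.562) than libraries 4 (0.584) and 5 (0.599) did. All 4 ASVs found in every library before and none after were in library 7, and 1 of the 11 found in every library after and none before was. ASVs not found in libraries 4 to 6 held 0.0795% of its counts, and ASVs not found in libraries 12 to 15 held 26.8%. ASV4 stood at 5.73% in it (95% Wilson interval 5.62% to 5.85%), ASV10 at 2.94%, ASV5 at 10.0%, ASV15 at 10.5% and ASV34 at 1.38%, while ASV29 had no count. The ASVs ASV4, ASV10, ASV5, ASV15 and ASV34 were also found in the GPR15L arm after DSS. ASV21 stood at 0.0179%, below the range of libraries 4 to 6 (0.464% to 8.46%) and inside that of libraries 12 to 15 (0 to 0.0360%). Counted as titled, with the group after DSS, library 7 left 3 ASVs past the threshold (ASV21, ASV29 and ASV57), 0 families and 0 phyla, and an R2 of 0.299 (exact permutation p = 0.0893).

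Whether the course differed from that in the GPR15L arm (libraries 1 to 3 before, 8 to 11 after) was tested as an interaction. Of 282 ASVs 28 passed (9.93%), along with 1 of 38 families (2.63%) and 0 of 11 phyla, where edgeR gave Pseudomonadota an adjusted p of 0.19. Of the 12 ASVs that passed over the course in the PBS arm, 7 also passed here. ASV4 remained in the GPR15L arm, at 5.48% before and 3.73% after DSS (interaction adjusted p = 0.000271, edgeR), and so did ASV10, at 3.34% and 2.29% (0.000310). ASV5 went from 2.65% to 0.985% there (0.00802) and ASV34 from 1.18% to 0.373% (0.0165). ASV15 went from 1.12% to 0.156% (0.0126). ASV114, which rose in the PBS arm, went from 0.325% to 0 in the GPR15L arm (0.00107). ASV63 went from 0 to 0.652% there (0.00802), the same direction as in the PBS arm. That mean after DSS lay inside the range of the PBS libraries after DSS. Before DSS, ASV63 was at 0 in the GPR15L arm and found at low shares in the PBS arm. The Clostridia vadinBB60 group, which holds ASV63, went from 0.0919% to 0.772% in the GPR15L arm. Taken among families, its log2 change was 3.07 there and 3.25 in the PBS arm, and the interaction did not pass. ASV29 and ASV21 did not pass the interaction: ASV29 was at 0 before and 0.0139% after in the GPR15L arm, and ASV21 went from 1.91% to 0.0156%. With ASV29 at 0 before DSS in both arms, both fitted folds start from empty groups. The interaction test therefore cannot decide whether its courses differ. The same holds for the [Eubacterium] siraeum group of ASV119, at 0 and 0.544% in the PBS arm and without a count in the GPR15L arm, which did not pass either. The family was Clostridiaceae, here the segmented filamentous bacterium Candidatus Arthromitus, at 0 before and 0.0137% after in the PBS arm and at 0.0125% and 0 in the GPR15L arm (edgeR adjusted p = 0.0364). It had 30 counts in all after DSS in the PBS arm. No family passed the interaction without library 5, 6, 12, 13, 14 or 15, with library 7 as titled, or with the filter at a mean share of 0.1%.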

How the data were processed

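Per the labels' protocols, 10 ng of stool DNA went into 25 cycles of PCR on the V4 part of the 16S rRNA gene, followed by paired reads of 151 bases. The authors deposited whole-number read counts per ASV in a table whose name points to DADA2. Its taxonomy database, read filters and version were not given in the sources used here. The submitters' processing notes list R 4.5.1 and limma with no role. The table held 3697 ASVs, 507 of them with a count in any library.

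Counts were summed per genus (or lowest named rank), family, order and phylum. Features with at least 10 counts in all and a count in at least 3 libraries were tested with edgeR 4.0.16 (R 4.3.3), using the quasi-likelihood fit with 1 mean for each of 4 groups over 14 libraries. Scaling was TMMwsp for ASVs and genera and library totals for families, orders and phyla, and p-values were adjusted by Benjamini-Hochberg at 0.05 over all features of a rank. The SE was back-calculated from the test statistic. Where a group was at 0, no fitted fold is given. Distances and diversity were tested by exact permutation over 35 splits. The edgeR fit of ASVs before against after DSS in the PBS arm was tested on simulated counts.

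Taxa named are all phyla, families of at least 1%, ASVs and genera past 0.05 with at least 0.1%, ASVs of at least 2%, the 3 largest ASVs found in every library of one group alone, and 15 taxon lists. Ruminococcus, Blautia, Candidatus Arthromitus, Clostridioides and the pairs of ASVs were named after their values were seen. The members, lists and tests were chosen with earlier results of these data known. Alternatives were TMM, TMMwsp, library totals, DESeq2 1.42.0, limma 3.58.1 voom, other filters, the PBS groups fitted alone, library 7 as titled and each library left out. Leaving out libraries 6 and 14 together and edgeR's newer quasi-likelihood form were chosen after seeing the data. Sex and cage were not analysed here.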

Additional observations from a re-analysis of the deposited data

Results flagged for a closer look

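Among the 4 libraries after DSS, 59 values were tested for a library far from the others by Dixon's criterion. Chance gives about 1 in 20 for independent normal values, which these shares are not. Here 12 stood out. Library 14 accounts for 10 of them: Bacillota at 65.1%, Bacteroidota at 19.1%, a Bacillota to Bacteroidota ratio of 3.41, Verrucomicrobiota at 1.17%, Bacteroidaceae at 6.82%, Muribaculaceae at 8.36%, ASV2 at 2.24%, ASV22 (Lachnospiraceae NK4A136 group) at 6.10%, ASV41 at 9.72% and ASV34 at 0.0118%. Library 13 was the one library after DSS with counts of Butyribacter (0.0580%) and of its ASV21 (0.0360%). These values share counts with each other and are not separate findings. For Butyribacter, ASV21 and ASV34 the other libraries after DSS all held 0, so any count there was flagged whatever its size.

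The course over DSS differed between the PBS and the GPR15L arm, by the interaction test of edgeR, for 8 of the ASVs named. Their interaction adjusted p was 0.000271 for ASV4, 0.000310 for ASV10, 0.00107 for ASV114, 0.00802 for ASV5, 0.00802 for ASV63, 0.0126 for ASV15, 0.0161 for ASV41 and 0.0165 for ASV34. The arms already differed before DSS for some of these: ASV114 was at 0 in the PBS arm and at 0.101% to 0.494% in the GPR15L arm. ASV63 was at 0 in the GPR15L arm before DSS and found at low shares in the PBS arm.

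Library 7, outside the comparison, held taxa above every compared PBS library. Clostridioides, the genus of C. difficile, made up 5.23% of its counts (95% Wilson interval 5.12% to 5.34%), against 0.568% in library 6 and no count in the other 6 libraries compared. Muribaculaceae without a genus made up 35.7%, Parabacteroides 3.76%, Quinella 2.94% and Desulfovibrionaceae without a genus 1.14%.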

How the results depend on the processing

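No paired analysis was possible because the labels number the libraries 1 to 15 and tie none before DSS to one after, so whether any mouse was sampled at both times is not known here. The 12 ASVs became 51 with DESeq2, 56 with limma voom, 36 with no count filter, 53 with edgeR's newer form and 3 with library 7 as titled, and 7 to 16 with a library left out. The 28 ASVs of the interaction became 60, 82 and 43 with DESeq2, voom and no filter, 9 with library 7, and 17 to 38 with a library left out. The 4 genera became 13 with DESeq2, 12 with voom, 17 with the newer form, 2 with the PBS groups alone, 1 with library 7, 2 without libraries 6 and 14, and 1 to 9 with a library left out. The 1 family became 2 with TMMwsp, DESeq2, the PBS groups alone or the newer form, 4 with voom, 3 with no filter, 0 with library 7, and 0 to 2 with a library left out. The 1 family of the interaction became 2 with TMM or TMMwsp, 7 with DESeq2, 5 with voom, 6 with no filter, 4 with the newer form, 0 with the filter at 0.1%, with library 7 or without libraries 6 and 14, and 0 to 4 with a library left out. The 1 order became 0 with TMMwsp or library 7, 2 with DESeq2 or the PBS groups alone, 5 with voom or the newer form, 3 with no filter, and 0 to 2 with a library left out. The 1 phylum became 3 with DESeq2, 2 with voom and 0 with library 7. The causes were not tested. The R2 of 0.482 became 0.263, 0.243, 0.195 and 0.109 for genus, family, order and phylum sums, 0.299 with library 7, 0.833 without libraries 6 and 14 (exact permutation p = 0.1, the smallest possible), and 0.451 to 0.646 with a library left out. The Shannon difference of 0.185 became -0.324 without libraries 6 and 14 and -0.231 to 0.595 with a library left out, and the difference in ASVs at equal depth ranged from -56.4 to 45.6.

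Log2 changes that turned sign, none past the threshold once turned, were as follows. Without libraries 6 and 14 they were 2.38 for Deferribacteraceae and Deferribacterota, 0.31 for Helicobacteraceae and Campylobacterota, 1.30 for Verrucomicrobiota, 2.73 for ASV1, 1.19 for ASV9, -0.21 for Oscillospiraceae and -0.41 for Bacillota. Bacillota stood at -0.19 with TMM, -0.50 with TMMwsp and -0.053 with library 7, and ASV15 at 0.72 with library 7. With voom they were 0.75 for Deferribacteraceae, 0.96 for Deferribacterota, 1.36 for Verrucomicrobiota, 0.77 for ASV1 and 0.78 for ASV28. Of the other settings of named taxa, 823 kept direction and side of the threshold, 27 newly passed and 62 no longer passed. The sign also turned without library 6 (Deferribacteraceae, Helicobacteraceae, their phyla, Verrucomicrobiota, ASV1 and ASV9), 14 (Bacillota), 5 (Mycoplasmataceae and ASV19) or 4 (ASV6). With each library left out in turn the ranges were -1.59 to 2.57 for Deferribacteraceae and Deferribacterota, -0.71 to 0.16 for Helicobacteraceae and Campylobacterota, -2.19 to 0.29 for Mycoplasmataceae, -0.30 to 0.33 for Bacillota, -2.49 to 3.13 for Verrucomicrobiota, -3.88 to 2.75 for ASV1, -0.0070 to 1.82 for ASV6, -3.62 to 1.17 for ASV9 and -2.67 to 0.39 for ASV19. The median log2 change of all genera was -0.56, and -0.99 with TMM. At 48847 counts, the lowest depth, an ASV at 0 could hold up to 0.00614% of that library.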

Other observations

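Several pairs of ASVs kept a nearly fixed ratio wherever both were found in the 8 PBS libraries. They were chosen after their values were seen and are given as a description. The ratio of ASV4 to ASV10, both of Bacteroides, lay between 1.60 and 1.95 in 4 libraries. In Muribaculaceae without a genus, ASV8 to ASV33 lay between 2.65 and 3.45 in 8 libraries, ASV24 to ASV25 between 0.955 and 1.36 in 8, ASV32 to ASV66 between 2.96 and 3.74 in 8, and ASV88 to ASV94 between 0.859 and 1.44 in 6. In Lachnospiraceae, ASV102 to ASV145 lay between 1.37 and 2.12 in 6. A bacterial genome can carry several copies of the 16S rRNA gene that differ in sequence, so ASVs are not in general separate strains, and whether these pairs come from single strains was not tested.

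Candidatus Arthromitus, segmented filamentous bacteria that attach to the ileal epithelium, had no count in libraries 4 to 7 and made up 0.0113%, 0.0280%, 0.00737% and 0.00799% of counts in libraries 12 to 15. Blautia, a Lachnospiraceae genus, had a mean of 0.0391% before DSS and no count after. Neither genus passed the threshold, with an edgeR adjusted p of 0.0822 for each.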
